A study of Mus musculus with 4 samples.

Results

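Expression of 10 genes that mark mouse embryonic stem cells was followed in neural precursors depleted of Geminin, the small protein encoded by Gmnn that restrains replication licensing. The genes are the developmental pluripotency-associated genes Dppa2, Dppa3, Dppa4 and Dppa5a, together with Utf1, Tcl1, L1td1, Tdh, Fbxo15 and Spp1. They were taken by symbol from tables of 21690 features, and all 10 were found. The 3 Geminin knockdown libraries came from independent experiments with A2lox mouse embryonic stem cells carrying a doxycycline-inducible knockdown, kept as neural monolayers in N2B27 medium, given 500 ng doxycycline from day 3 and harvested on day 5. The 1 control library came from the same kind of culture without doxycycline and was also harvested on day 5. All cells had been kept on feeder fibroblasts before differentiation. No culture with doxycycline alone was analysed here, so the agent and the knockdown cannot be told apart.

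The group follows the exit from the pluripotent state. In embryonic stem cells these genes are active under the Oct4, Sox2 and Nanog network, and most are shut off when cells enter the neural lineage, several of them with DNA methylation of their promoters. Dppa2 and Dppa4 are paired chromatin-binding proteins with a SAP domain, Dppa3 protects DNA from changes in methylation in the early embryo, and Dppa5a is an RNA-binding protein with a KH domain. Spp1, which encodes the secreted protein osteopontin, is also known from bone, macrophages and fibroblasts, so it is the least specific of the 10 as a stem cell marker.

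Gmnn had 27.0, 65.9 and 27.9 FPKM in knockdown libraries 1, 2 and 3, against 113 FPKM in the control, where FPKM are fragment numbers scaled to exon length and to library size. The level left was 24.0%, 58.4% and 24.7% of the control, with a mean of 35.7% ± 19.7 (SD, n = 3). The authors' deposited tables marked the fall in libraries 1 and 3 and not in library 2. The summed FPKM of the 10 genes was 101, 325 and 527 in the same libraries, against 72.5 in the control. Library 1, with the lowest Gmnn, had the sum nearest to the control, and library 2, with the most Gmnn left, had a sum far above it. Dppa5a was the largest term of each sum. In bulk RNA, more cells of a type and more RNA per cell cannot be told apart, so these values do not say whether some or all cells held more of the transcripts.

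**Figure D1:**
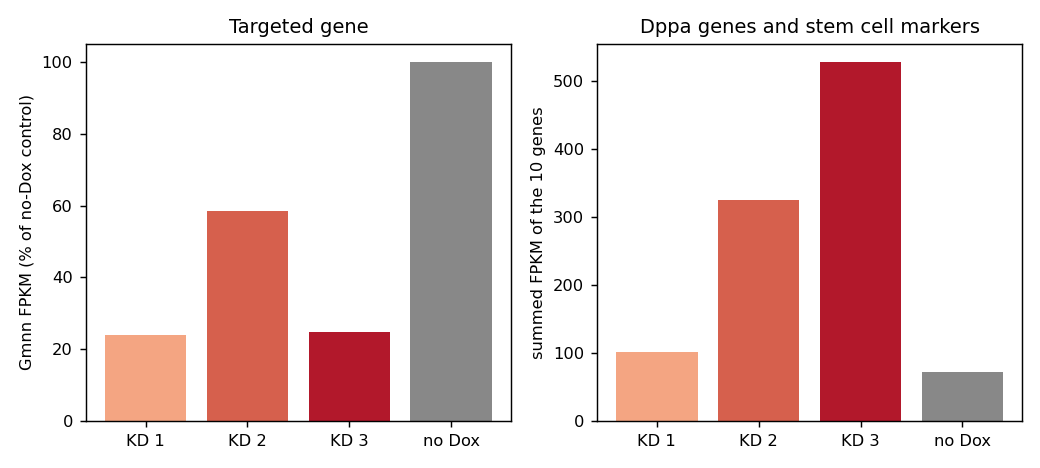
Left, Gmnn in each library as a percent of the no-Dox control; right, the summed FPKM of the 10 genes, with one bar per library and no error bars since each bar is 1 library. Gmnn was lowest in library 1 (24.0%), where the sum of 101 FPKM lay nearest to the control's 72.5.

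Most of the 10 genes were higher after Geminin knockdown, by far more in knockdown libraries 2 and 3 than in library 1. The control shares its replicate number with library 1 only, and libraries 2 and 3 have no control of their own number. The labels do not say whether the control and library 1 came from the same experiment. A difference between experiments and the knockdown therefore cannot be told apart in any of the 3 libraries. By the rule stated for the series, a significant mark by Cuffdiff in at least 2 of the 3 deposited tables in 1 direction, Dppa2, Dppa5a, Tcl1, L1td1, Fbxo15 and Spp1 rose and none of the 10 fell. That is 6 of 10, or 6 of the 9 that could be called, against 1.98% of the 14477 callable features called higher and 0.905% called lower. Tcl1, at 0 in the control and in library 1, was callable only through libraries 2 and 3. It could only have been called higher, so its call adds nothing to that count. Each mark sets 1 library against the 1 control, and the 3 tables share that control, so a chance deviation of the control recurs in all of them. The authors' deposited tables marked 1 of the 10 as higher in library 1, 5 in library 2 and 7 in library 3, against 0.909%, 3.23% and 3.33% of the features tested in each. Without library 1 the count of called genes was 5, without library 2 it was 1 (L1td1) and without library 3 it was 0. Both remaining tables then had to carry a mark. The count of all features called higher fell too, from 286 to 272, 12 and 12 in the same order.

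Promoter sequences were held for Utf1, Tcl1, L1td1 and Spp1, from RefSeq on GRCm38.p6, and are shown because these 4 genes differ in CpG content. Each is the 250 bases before the annotated start, read 5′ to 3′ on the gene's strand, with CpG dinucleotides, the target of DNA methylation, in capitals.
Utf1, chr7:139943606-139943855, plus strand: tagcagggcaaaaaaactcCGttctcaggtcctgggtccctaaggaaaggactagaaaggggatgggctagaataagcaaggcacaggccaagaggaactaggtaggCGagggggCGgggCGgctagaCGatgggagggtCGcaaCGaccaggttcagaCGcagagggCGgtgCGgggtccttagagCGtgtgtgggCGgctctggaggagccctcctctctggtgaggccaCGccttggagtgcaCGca
L1td1, chr4:98726504-98726753, plus strand: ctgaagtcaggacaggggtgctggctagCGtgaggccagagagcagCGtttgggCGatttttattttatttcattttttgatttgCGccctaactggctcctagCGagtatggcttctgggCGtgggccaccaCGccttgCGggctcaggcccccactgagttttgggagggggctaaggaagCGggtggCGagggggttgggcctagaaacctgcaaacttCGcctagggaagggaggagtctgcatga
Tcl1, chr12:105222738-105222987, minus strand: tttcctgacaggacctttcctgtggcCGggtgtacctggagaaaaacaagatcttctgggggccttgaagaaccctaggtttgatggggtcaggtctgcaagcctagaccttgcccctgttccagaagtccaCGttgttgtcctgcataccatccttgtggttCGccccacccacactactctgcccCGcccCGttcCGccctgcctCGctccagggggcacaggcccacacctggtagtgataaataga
Spp1, chr5:104434861-104435110, plus strand: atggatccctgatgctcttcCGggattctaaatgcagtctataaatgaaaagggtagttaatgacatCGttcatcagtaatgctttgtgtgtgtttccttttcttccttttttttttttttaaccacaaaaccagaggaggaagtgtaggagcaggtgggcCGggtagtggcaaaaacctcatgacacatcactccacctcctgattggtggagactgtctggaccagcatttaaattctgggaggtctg

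The windows held 14 CpG in Utf1, 11 in L1td1, 7 in Tcl1 and 3 in Spp1, against a median of 6 over 32851 promoter windows of the same length. The GC box GGGCGG, searched on both strands like all motifs here, matched 4 times in Utf1 and 2 times in Tcl1, and 32.7% of all windows held it; the CpG within it are among those counted. TATAAA matched once in Spp1 (12.4% of windows), and CANNTG matched once in Tcl1 and once in Spp1 (66.2%). None of the 4 windows held the octamer ATGCAAAT, the Sox core CATTGT or the nuclear receptor motif AAGGTCA, which 1.60%, 10.7% and 4.08% of windows held. A second annotated start of Spp1, on chromosome 5, has its window from 104435942 to 104436191, and that window held 1 octamer, which overlaps a CANNTG match. A match or its absence says nothing about binding in these cells.

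Among the Dppa genes, Dppa5a, on chromosome 9 from 78214860 to 78216006 (mm9), changed most. It had 32.8, 184 and 286 FPKM in knockdown libraries 1, 2 and 3, against 19.9 FPKM in the control. All 3 knockdown values lay above the control, by 1.65-fold in library 1, 9.24-fold in library 2 and 14.4-fold in library 3. The mean was 167 ± 127 FPKM (SD, n = 3), so the spread between knockdown libraries was nearly as large as the mean. The transcript is short, at 619 bases in GENCODE M21, and 9 other annotated genes match it at 90% identity or more over at least 100 bases, most of them pseudogenes. The closest is Pigp, an enzyme subunit of GPI anchor synthesis, with 95.9% identity over 417 bases. Pigp had 48.6, 56.6 and 63.5 FPKM against 43.8 FPKM, a much flatter profile. How the authors' counting divided shared reads is not given in the sources used here, so the level of Dppa5a is uncertain to that extent.

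Dppa2 and Dppa4 lie side by side on chromosome 16 (mm9), Dppa4 from 48283847 to 48294405 and Dppa2 from 48310386 to 48319626, 16.0 kb apart. Their products form a pair that binds CpG-rich promoters, yet their values did not run in parallel. Dppa2 had 1.49, 7.42 and 13.2 FPKM in knockdown libraries 1, 2 and 3, against 0.970 FPKM in the control, and was marked in libraries 2 and 3. Dppa4 had 12.2, 9.78 and 18.5 FPKM, against 7.99 FPKM in the control. It was above the control in every knockdown library, and no table marked it. In the control Dppa4 was thus the more abundant of the pair per length, while in libraries 2 and 3 the levels were closer. Library 2, in which Dppa2 was 7.65-fold above the control, had Dppa4 at only 1.22-fold. In library 3 the authors' q-value for Dppa4 was 0.0533, just above the 0.05 at which the tables set their mark. The transcript of Dppa2 has 6 pseudogene copies at the same identity limit and that of Dppa4 has 2, and the tables list none of them.

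Dppa3, known also as Stella and placed on chromosome 6 from 122576441 to 122580289 (mm9), stood apart from the others. It had 0.0621 and 0.432 FPKM in knockdown libraries 1 and 2 and was listed at 0 in library 3, against 0.249 FPKM in the control. The FPKM of low features move in steps of whole reads, and the smallest whole numbers that match these values are 1, 8 and 0 reads against 4 reads. No table tested it, and the groups overlap. A difference in Dppa3 was not detectable at this depth. Its neighbours on chromosome 6 had higher levels. Nanog, a core pluripotency factor that lies 77.3 kb away, rose, with 4.97, 23.1 and 40.3 FPKM against 3.91 FPKM. Gdf3, a TGF-beta family signal at 16.4 kb on the other side, had 8.42, 6.27 and 10.8 FPKM against 6.75 FPKM and was not called.

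**Figure D2:**
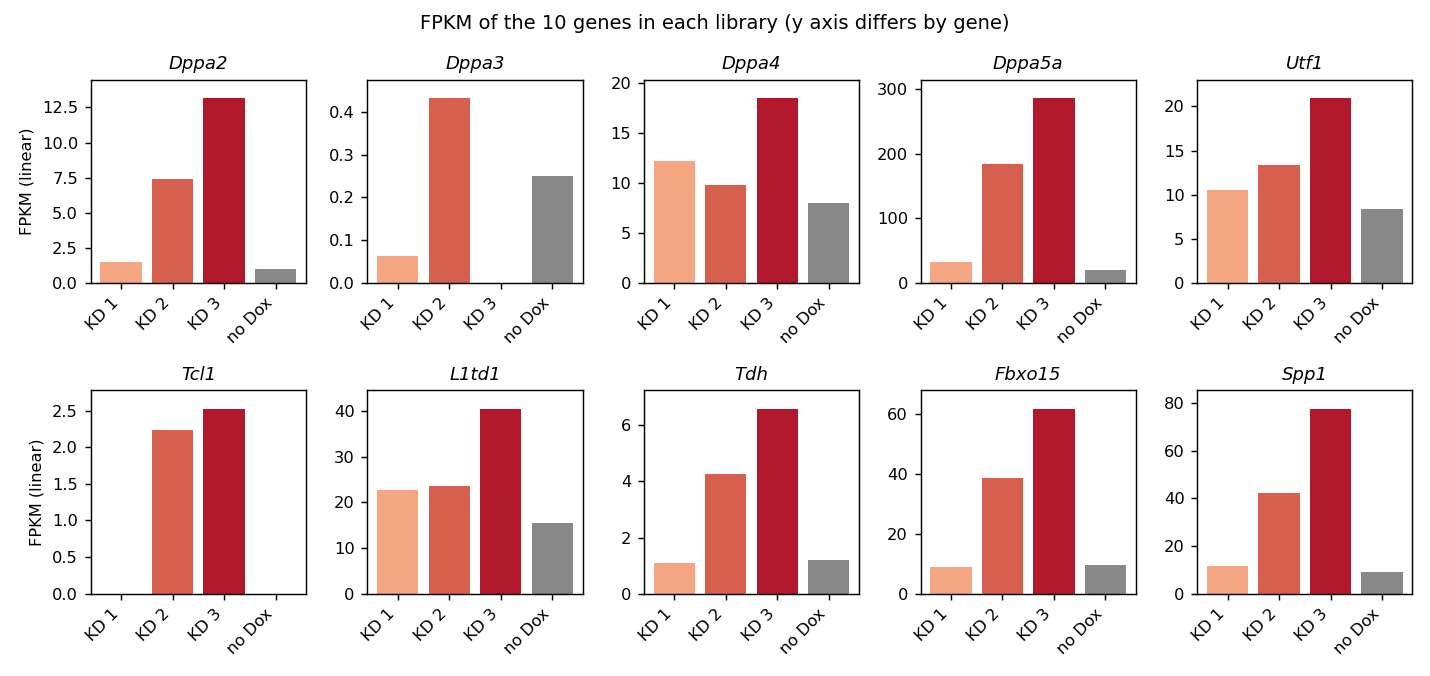
FPKM of each gene on a linear axis that starts at 0 and differs in range between panels; bars are single libraries, KD 1 to KD 3 for the Geminin knockdown and no Dox for the control. Of the 10 genes, 9 were highest in library 3, Dppa3 being the exception.

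The nuclear and signalling markers changed unequally. Utf1, a chromatin-associated factor of undifferentiated cells on chromosome 7 from 147129754 to 147131011 (mm9), had 10.5, 13.3 and 20.9 FPKM in knockdown libraries 1, 2 and 3, against 8.33 FPKM in the control. All knockdown values lay above the control, and no table marked it. Tcl1, a coactivator of AKT kinases on chromosome 12 from 106454966 to 106460947, was listed at 0 in library 1, had 2.24 and 2.52 FPKM in libraries 2 and 3, and was listed at 0 in the control. Both of these values were marked, and in library 1 the authors' table gave no test. With a control at 0 no fold change is given. Its neighbours in the cluster, Tcl1b1 to Tcl1b5, were listed at 0 in all 4 libraries, as was Dppa1.

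L1td1, an RNA-binding protein derived from a retrotransposon, lies on chromosome 4 from 98393444 to 98405177 (mm9). It had 22.7, 23.5 and 40.5 FPKM in knockdown libraries 1, 2 and 3, against 15.5 FPKM in the control. It lay above the control in each library and was the only one of the 10 marked in library 1. The mark there stands for 1.46-fold with a q-value of 0.00186, whereas 1.52-fold in library 2 was not marked, with a q-value of 0.340. Its mean was 28.9 ± 10.0 FPKM (SD, n = 3), the tightest of the 6 called genes relative to its size.

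Tdh (chromosome 14, 64111185 to 64127929) and Fbxo15 (chromosome 18, 85104416 to 85150784, both mm9) lay close to the control in library 1. Tdh, the mitochondrial enzyme through which mouse stem cells break down threonine, had 1.09, 4.28 and 6.59 FPKM in knockdown libraries 1, 2 and 3, against 1.19 FPKM in the control. It was marked in library 3 only and so was not called. Fbxo15, an F-box protein and well-known target of Oct4 and Sox2, had 8.99, 38.6 and 61.8 FPKM, against 9.52 FPKM in the control. Libraries 2 and 3 were 4.05-fold and 6.50-fold above it and marked, while library 1 was at 94.5% of it. Fbxo15 overlaps 1700034H14Rik on chromosome 18, where reads of both could be mixed. That gene had 22.8, 18.2 and 16.9 FPKM against 21.1 FPKM and was not called.

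Spp1, on chromosome 5 from 104864136 to 104870069 (mm9), had 11.6, 42.2 and 77.6 FPKM in knockdown libraries 1, 2 and 3, against 8.89 FPKM in the control. All 3 lay above the control, by 1.31-fold, 4.74-fold and 8.73-fold, and libraries 2 and 3 were marked. Fibroblast and feeder markers moved in the same libraries: their 15 measured genes summed to 60.2, 82.5 and 122 FPKM against 56.6 FPKM. Of them 3 rose and 0 fell, none was listed at 0 in every library, and 3 were below 1 FPKM in every library. Postn, a matrix protein of fibroblasts, had 2.71, 4.74 and 6.55 FPKM against 1.23 FPKM, and Lox and Col5a2 were the others that rose. The part of feeder cells in the Spp1 values was not tested. Of 9 macrophage markers 8 were below 1 FPKM in every library, and Cd68, the most abundant, had 4.93, 1.82 and 4.31 FPKM against 4.38 FPKM. Of the proteins that work with osteopontin, 0 of 13 receptors and relatives were called, and 9 of them were callable. Over all callable features 1.98% were called higher and 0.905% lower, so none called is usual for so short a list. The relatives Dmp1, Dspp, Ibsp and Mepe were listed at 0 throughout. Itgb1, an integrin subunit, had 162, 144 and 183 FPKM against 143 FPKM.

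**Figure D3:**
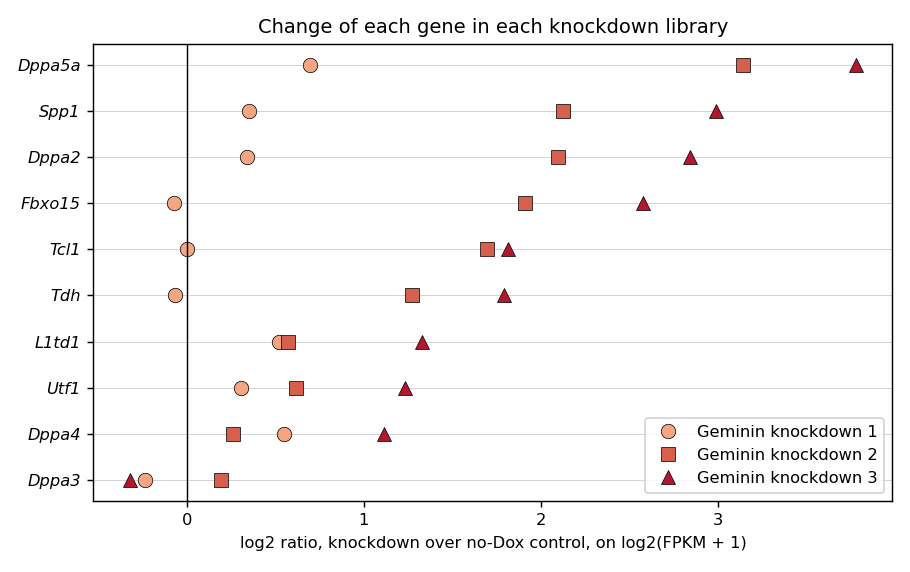
Log2 ratio of knockdown over the no-Dox control for each gene, one symbol per knockdown library, on the log2(FPKM + 1) scale, which understates changes of low genes. Libraries 2 and 3 lie right of library 1 for 8 of the 10 genes, while Dppa4 has library 2 lowest and Dppa3 lies on both sides of 0.

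The libraries were ordered alike in most of the genes. FPKM was highest in knockdown library 3, then 2, then 1, in 8 of the 10 genes, and 20.6% of the 12162 tested features had that order. In 6 of the 10 every knockdown library lay above the control, as in 22.8% of tested features, and in 0 of the 10 every one lay below it, as in 22.7%. Library 1 had 0 genes at a log2 ratio of at least 1, library 2 had 6 and library 3 had 9. The share of all features past that limit was not counted. The median log2 ratio over the 10 genes was 0.32, 1.48 and 1.81 in libraries 1, 2 and 3, against 0 in each for all 21230 features with usable values.

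Across all features the spread between knockdown libraries was fitted with limma on log2(FPKM + 1). None of the 9 members tested passed (adjusted p = 0.993 for all 9, Benjamini-Hochberg over 12162 features), and 0 had an unadjusted p under 0.05, as 1.33% of features had. Estimated log2 changes ran between 0.64 for Dppa4 and 2.54 for Dppa5a, and the standard error of the latter gene was 1.30. L1td1 had the smallest unadjusted limma p, 0.0962, at a log2 change of 0.81 with a standard error of 0.38. By the same test 0.0247% of features were higher and 0.132% lower. Without library 1, the estimated log2 changes ran between 0.69 for Dppa4 and 3.46 for Dppa5a. With 1 control, only the knockdown libraries inform the spread, through 2 residual degrees of freedom. For 3 libraries set against 1, an exact permutation test cannot give a p under 0.25, so no difference of any size could have reached 0.05 by it.

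**Figure D4:**
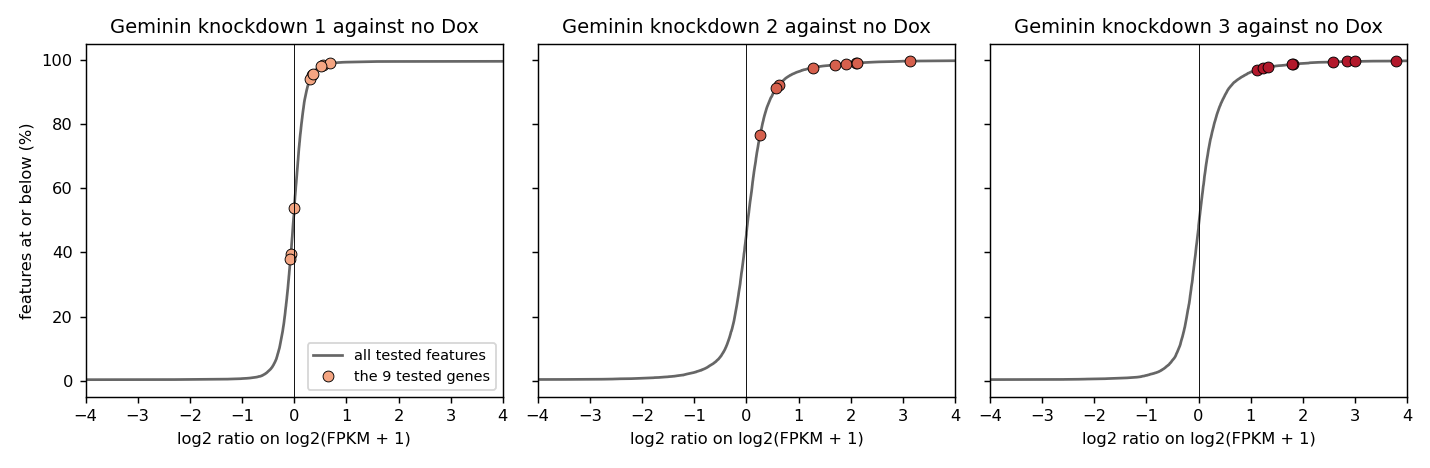
Cumulative share of the 12162 tested features (vertical axis, percent) at or below each log2 ratio, with the 9 tested genes as points, in each knockdown library; features beyond the ends of the horizontal axis are not drawn. In library 3 all 9 points lie right of 1, with the lowest at 1.12, and in library 1 the highest is at 0.69.

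Other genes of the pluripotent state were set beside the 10, with 1.98% of all callable features called higher and 0.905% lower. Of 15 measured core and naive pluripotency factors 7 rose and 1, Lin28a, fell, with median log2 ratios of 0.05, 1.15 and 1.60 in libraries 1, 2 and 3. Lin28a was marked in all 3 deposited tables, and 0 of the 7 that rose were. The summed FPKM of the 15 was 667, 573 and 696 in these libraries, against 688 in the control. Tdgf1, a co-receptor for Nodal, had 1.68, 14.6 and 35.5 FPKM against 1.42 FPKM, while Zfp42 and Esrrb also rose. Of 25 other transcripts of embryonic stem cells, 17 of them callable, 6 rose and 0 fell. Trap1a, a tumour rejection antigen, had 31.8, 155 and 179 FPKM against 26.0 FPKM. Ooep, a KH-domain protein of the oocyte that lies 8.70 kb from Dppa5a, had 0.304, 4.24 and 3.93 FPKM against 0.305 FPKM, and Jam2, a junction protein, rose as well. Among 12 genes of the primed epiblast, 9 of them callable, 4 fell, 0 rose and 8 were not called. As a whole that list had no common direction, since 2 genes lay above the control in every knockdown library and 2 below it. Wnt8a, a secreted signal of the primed epiblast, had 10.9, 0.808 and 2.04 FPKM against 9.90 FPKM, and Pou3f1 and Cldn6 fell too. The other gene that fell, Dnmt3b, is counted again among the DNA methylation enzymes.

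Genes tied to the functions of single members were counted in the same way, beside 1.98% of callable features called higher and 0.905% lower. Of 9 DNA methylation enzymes, listed because Dppa3 is tied to DNA methylation, Tet2 rose and Dnmt3b fell. Tet2, which oxidises methylated cytosine, had 3.23, 6.85 and 9.35 FPKM against 3.24 FPKM, and Dnmt3b, which methylates DNA anew, had 45.4, 25.8 and 28.8 FPKM against 43.6 FPKM. Of 12 genes of threonine and glycine breakdown, the pathway of Tdh, 1 rose: Mthfd2, an enzyme of mitochondrial folate metabolism, had 42.8, 77.6 and 80.7 FPKM against 40.6 FPKM. None of 9 genes of the AKT pathway that Tcl1 serves was called, nor any of 8 subunits of the SCF ligases in which Fbxo15 takes part. At the shares over all features, none called is the usual outcome for lists this short, so these counts do not show absence of change. Akt1 had 61.2, 64.6 and 61.8 FPKM against 63.8 FPKM, and Skp1a had 305, 307 and 284 FPKM against 315 FPKM. Among 9 listed 2-cell embryo genes, a set that Dppa2 and Dppa4 are known to help activate in mouse stem cells, 8 rose, with median log2 ratios of 0.29, 3.22 and 4.22 in libraries 1, 2 and 3. Zscan4f had 1.00, 13.8 and 27.1 FPKM against 0.210 FPKM, and members of that family share reads. Tcstv1, at 0.239 FPKM in the control, had no test in library 1 and was callable only through libraries 2 and 3, where it was high.

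**Figure D5:**
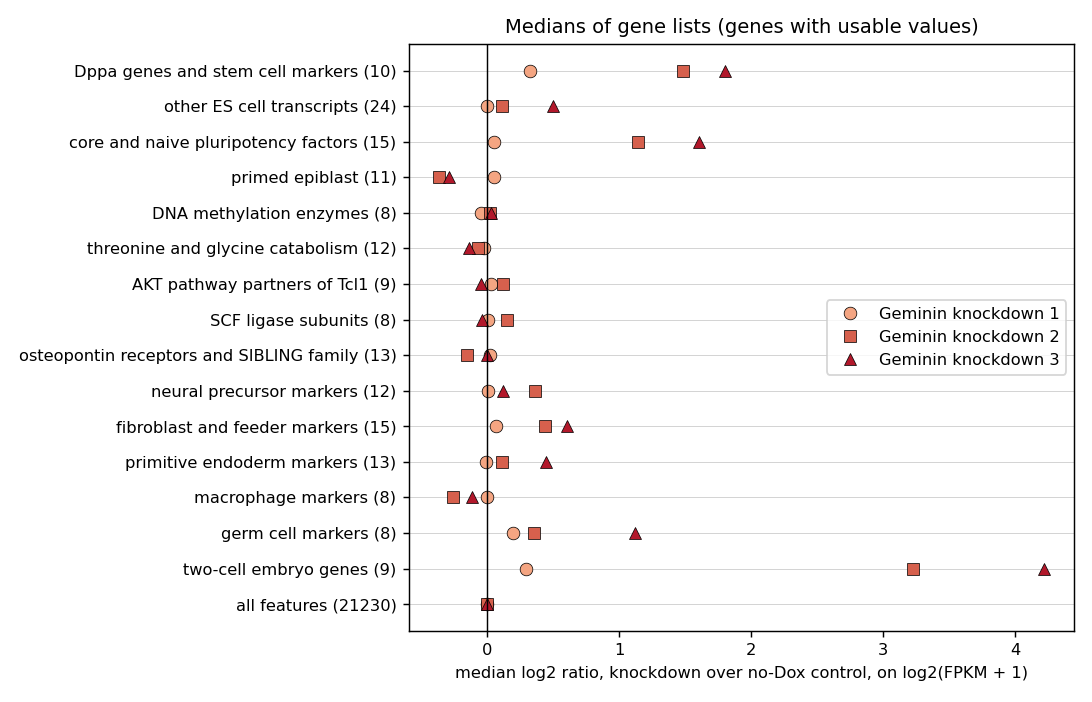
Median log2 ratio of knockdown over the no-Dox control for each gene list, on log2(FPKM + 1), one symbol per knockdown library, with the number of genes with usable values in brackets. The 10 genes had medians of 0.32, 1.48 and 1.81, and the core and naive factors 0.05, 1.15 and 1.60; all features had 0 in each.

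Markers of other cell types were compared in the same libraries. With 1.98% of callable features called higher and 0.905% lower, none called is the usual outcome for a list this short. Of 12 neural precursor markers 0 were called and none was listed at 0 or below 1 FPKM throughout, and they summed to 743, 931 and 757 FPKM in knockdown libraries 1, 2 and 3, against 750 FPKM in the control. Sox2, which neural precursors share with stem cells, had 140, 203 and 154 FPKM against 135 FPKM. Of 9 measured germ cell markers Dazl, Ddx4 and Mael rose and 0 fell, the sums being 28.4, 36.7 and 54.1 FPKM against 24.4 FPKM. Dazl, an RNA-binding protein of germ cells, had 0.223, 3.78 and 5.30 FPKM against 0.0559 FPKM. Of 13 primitive endoderm markers Cubn and Col4a1 rose and 0 fell, with sums of 1136, 1351 and 1647 FPKM against 1160 FPKM. The part of these cell types in the values of the 10 genes was not tested.

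The features that flank the 10 genes were mixed, beside 1.98% of all callable features called higher and 0.905% lower. Of 18 flanking features that are not themselves among the 10, 12 could be called, and 4 rose and 0 fell: Nanog beside Dppa3, Ooep beside Dppa5a, Kank4 beside L1td1 and Pvrl3, the nearest feature listed left of Dppa4 at 1787 kb. Mir202, a microRNA feature beside Utf1, could not be called by that rule because no table tested it. It was listed at 0 in all 3 knockdown libraries against 331 FPKM in the control, and limma placed it lower (adjusted p = 0.00266). Its knockdown values are identical, so they gave that test no spread of their own. Kank4 had 0.864, 2.17 and 2.33 FPKM against 0.566 FPKM. Inadl, a polarity protein on the other side of L1td1, had 11.6, 5.23 and 8.02 FPKM against 12.5 FPKM. Inadl lay below the control in every knockdown library but was marked only in library 2, so it was not called. Pkd2 beside Spp1 and Mtmr9 beside Tdh, at 9.23 to 12.7 FPKM and 59.1 to 65.4 FPKM in knockdown libraries against 12.3 and 71.2 FPKM, were not called either.

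For each called gene the features with the most similar profile were sought by Euclidean distance over the 3 log2 ratios. The search covered features that averaged 1 FPKM or more and had a Cuffdiff test in all 3 deposited tables. These were 11968 for Tcl1 and 11967 for each other gene. Features without a test in library 1, such as Ooep and Dazl, could not be found in it. The profile nearest to that of Dppa5a was Zfp42, a zinc finger marker of pluripotent cells, at a distance of 0.55, with 4.68, 33.0 and 58.0 FPKM against 3.74 FPKM. Dppa2 was the second nearest to Spp1, at 0.15, and the predicted gene Gm13242 came first for both Spp1 (0.13) and Dppa2 (0.12). Arl4d, a small GTPase, was nearest to Tcl1 at 0.09 and had 1.43, 6.65 and 7.09 FPKM against 1.43 FPKM. Cobl, an actin nucleator, was nearest to Fbxo15 at 0.13. Zscan30 was nearest to L1td1 at 0.12, with 1.63, 1.98 and 4.03 FPKM against 0.978 FPKM, and was not called. These distances cover 3 ratios that share 1 control.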

How the data were processed

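RNA was sequenced from 3 Geminin knockdown libraries and 1 control library. Per the submitters' processing notes the authors used TopHat, Cufflinks and Cuffdiff on mm9; tool versions and gene annotation: not given in the sources used here. The 3 deposited tables, per the file headers, each set 1 knockdown library against the control and give FPKM for both, a p-value, a q-value, which is treated as a score because it reaches 1.05, a yes or no mark, and a natural log ratio of control over knockdown, whose sign was checked against the FPKM and agreed in 100% of cases. Files with only the marked features were left aside.

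Absolute depth is unknown. In low features FPKM ratios step by whole reads (84.7% to 87.9% within 0.2% of a ratio of whole numbers up to 12), so that the depth was 1.00, 1.15 and 0.972 times that of the control. Between tables, 87.5% to 88.2% of features above 0 had the same control value to within 0.1%, hence ratios were formed within a table, and the control FPKM printed is the mean over tables.

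A feature was callable with a usable Cuffdiff test in at least 2 tables. Tcl1, Tcstv1, Ooep, Dazl and Mael had no test in library 1 and met this only through libraries 2 and 3, where they were high. limma 3.58.1 in R 4.3.3, with a trended prior variance and Benjamini-Hochberg adjustment at 0.05, was fitted to log2(FPKM + 1) of features that averaged 1 FPKM or more and had the status OK or NOTEST (too few reads for a Cuffdiff test) in every table, called usable here, and was tested on simulated data. Of the 10 genes 9 passed that filter; Tcl1 and Dppa2, whose control values lie below 1 FPKM, passed only through the knockdown libraries. The lone control is assumed to vary like the knockdown libraries, and p-values measure the spread between those. Medians of lists cover all members with usable values, without the filter on low values.

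Named genes are the 10 members, Gmnn, up to 3 called members of each list (or the 2 most abundant where none was called), flanking features, the 2 nearest profiles of each called member, and listed copies; Lin28a, Inadl, Pkd2 and other counts of 5 or fewer are spelled out. The members and lists were chosen with earlier results of these data known. Transcript copies were sought with blastn 2.17.0 in GENCODE M21. Alternatives varied the pseudocount, filter, prior, scaling, control value, mark rule and libraries.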

Additional observations from a re-analysis of the deposited data

How the results depend on the processing

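The count of 6 called genes was 7 with a mark in at least 1 table, 5 with a q-value under 0.01, 5 with a change of at least 1 log2 unit and 0 when all 3 tables had to carry a mark. Over all features the count called higher went from 286 to 758, 161, 199 and 3 in the same order. With 1 knockdown library left out, the count among the 10 lay between 0 and 5. For all features it was then 272, 12 and 12 without libraries 1, 2 and 3. The count of the 10 genes called lower was 0 under each of these, against 14 to 510 of all features. Genes above the control in every knockdown library numbered 6 with a minimum difference of 0.25 log2 units and with upper quartile scaling. With a library left out they numbered 6 to 9. Those below in every one numbered 0 to 1, the 1 being Dppa3 without library 2. The shares over all features were not computed under these settings, so these counts have no background to be read against. With fewer libraries the condition is also easier to meet. By limma 0 of the 10 genes passed under any of the 10 alternatives, with lowest adjusted p between 0.304 and 1. At an unadjusted p under 0.05 there were 0 in the alternatives that kept all 3 knockdown libraries. All 98 limma log2 changes of single genes, Gmnn included, kept their direction in those fits, and none was past the threshold in any. Some moved by over 1.5 times: Tcl1 was 3.09 with a pseudocount of 0.1 (1.17 with 1), Fbxo15 was 2.25 and Tdh 1.53 without library 1, and without library 3 Fbxo15 was 0.92, Tdh 0.60, Utf1 0.46 and Dppa4 0.41. The control could not be left out. No paired analysis was possible because the groups share only replicate number 1. Depth limits Dppa3 most, since it rests on few reads.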
